A study of Mus musculus with 24 samples.

Results

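The regions described here are the flanks of isolated protein-coding genes of the mouse, in which RNA that continues past an annotated gene end can be counted without a neighbouring gene in the way. Members were all autosomal protein-coding genes of GENCODE M1 (build mm9) with no other annotated gene within 15 kb on either side, which gave 3905 of 21418 autosomal protein-coding genes. For each member the 10 kb downstream of the gene end were cut into steps of 1 kb, and the 5 kb upstream of the gene start served as the comparison. The nearest gene lay at a median of 29382 bp from a member and at 223 bp from the other autosomal protein-coding genes. Members had fewer exons, with a median of 5 against 8, and 22.7% had a single exon against 11.0% of the other genes. Of the downstream flanks, 52 overlapped the flank of another member.

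RNA came from CCE cells, a feeder-independent embryonic stem cell line of the 129/SvEv strain that was differentiated for 5 days without LIF and with 0.266 µM retinoic acid, and from fetal heads (FH) of FVB/N mice at 14.5 dpc. Total RNA was depleted of ribosomal RNA with RiboMinus and fragmented by hydrolysis of the RNA or shearing of the cDNA. It was sequenced as 36-nt tags at Vienna-IMP and at Nijmegen. Other RNA, which the authors describe as a biological replicate, was depleted with Ribo-Zero, hydrolysed and sequenced as 51-nt tags at Vienna-CeMM. RNA sample, location, sequencing machine and tag length thus change together with the depletion method and cannot be told apart from it. The 14 RiboMinus libraries came from 4 CCE and 3 FH cDNA preparations, each sequenced at both locations, and there was 1 Ribo-Zero library per tissue. The CCE preparations were technical replicates of 1 cell line, FH is a mixture of tissues that went through 1 or 2 rounds of depletion, and no separate animals are stated, so p values measure the spread between preparations, which may be technical. Both fragmentation methods were applied to the same depleted RNA, so sheared and hydrolysed preparations of one RNA are not independent. Tests that count them singly can give p values that are too small.

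RiboMinus libraries held 920424 to 2473448 unique tags, the RiboMinus pools of CCE and FH held 13049762 and 9924914, and with Ribo-Zero there were 28708715 and 48426051. Most markers matched the labels. Of 8 primitive endoderm markers 6 were higher in every CCE than in every FH preparation, and 5 of 6 neural ones were higher in every FH preparation. Sox7 (1.89 to 4.04 RPKM in CCE, 2.45 to 4.66 in FH), Dab2 (7.94 to 21.6 and 4.40 to 8.55) and the neural Sox2 (10.5 to 20.6 and 20.5 to 44.4) overlapped. The neural marker Map2 had no value. For instance, the primitive endoderm gene Gata4 had 10.1 to 16.1 RPKM in CCE and 0 in FH and the neuronal gene Dcx 0 to 0.0939 RPKM in CCE and 18.2 to 37.2 in FH. The pluripotency gene Pou5f1 was still at 15.3 to 21.2 RPKM in CCE. Genes of blood, muscle, cartilage, lens and skin were higher in every FH than every CCE preparation for 7 of 7 such markers. In bulk samples fewer cells of a type and less RNA per cell cannot be told apart.

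At the end of most protein-coding genes the growing RNA is cut and given a poly(A) tail, in most cases a short distance after the hexamer AATAAA or its variant ATTAAA, which is bound by the cleavage and polyadenylation specificity factor. The polymerase goes on past the cut, and the RNA it then makes is normally degraded until transcription terminates. Libraries depleted of ribosomal RNA and not selected for poly(A) hold such nascent RNA beside mature mRNA. The tags carried no strand, so longer 3' ends missing from the annotation, read-through RNA and separate transcripts in the flank cannot be told apart in these counts.

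Shown first are 5 members from among those with the most abundant exons, whose annotated last bases hold the hexamer and whose flanks were at 0.0336% to 0.277% of exon density in the tissue that named them. Cotl1 and Tubb2b, which are about as abundant, hold neither hexamer there. The hexamer is in capitals in sequence from mm9, written 5' to 3' on the gene's strand, with the position of the 30 bases in brackets.
Shfm1 (chr6:6508289-6508318, minus strand): aaaaaataagtaAATAAAtgttttgattta
Itgb1 (chr8:131257062-131257091, plus strand): gttatttattaaAATAAAaaggcctaaata
Fscn1 (chr5:143734830-143734859, plus strand): tttgaactggaaAATAAAgtaaaatcaagt
Ddit4 (chr10:59412423-59412452, minus strand): atttttacttttctAATAAAcatgtttgtt
Stmn2 (chr3:8561567-8561596, plus strand): caagctgtgatgAATAAAgaattggagttc
In these genes the hexamer began 15 to 26 bases before the last annotated base.

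The second set lies kilobases past the annotated end, at places where a continuous run of flank tags stopped. In these 5 members no AATAAA or ATTAAA was present in the last 50 bases of the annotated gene, while AATAAA was present near the edge of the tags.
Eln (chr5:135178471-135178500, minus strand, 1163 bases past the end): ctagcaatgactAATAAAtataaacttttt
Arid5b (chr10:67555278-67555307, minus strand, 3046 bases past the end): actgtaatatttAATAAAaaatgttactat
Soat1 (chr1:158354664-158354693, minus strand, 3558 bases past the end): aagaatgtgataAATAAAtatatttagaaa
Lnpep (chr17:17658378-17658407, minus strand, 6292 bases past the end): ttgtgaaatgaaAATAAAagtatttaaata
Sesn3 (chr9:14137514-14137543, plus strand, 6944 bases past the end): ttttattggttcAATAAAattgacaaagct

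The third set comes from members with many flank tags whose annotated end does hold a hexamer, AATAAA in Phactr2 and Aak1 and ATTAAA in Add2 and Bmpr2.
Phactr2 (chr10:12933209-12933238, minus strand): gcaagccttagaAATAAAccttctgctctt
Aak1 (chr6:86941819-86941848, plus strand): aacatacagaggAATAAAgcttttatctgt
Add2 (chr6:86069512-86069541, plus strand): acaggctgaaaaATTAAAcccagctgtagc
Bmpr2 (chr1:59927668-59927697, plus strand): tttctaaaggtcATTAAAacagaagcaaat
A hexamer at the annotated end was therefore present both in genes whose flanks were low relative to their exons and in genes whose flanks were high.

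The first comparison asked whether flanks of expressed members held more tags downstream than upstream. A member was called expressed in a tissue when its exons had an RPKM over 3 in the RiboMinus pool, where RPKM is the tag count per kb of the region, normalised to all unique tags of the library or pool on the usual CPM scale. This gave 902 members in CCE and 1035 in FH, 747 of which were expressed in both tissues and 1190 in at least 1, while 1703 had at most 0.1 RPKM in both. Summed over the expressed members of each tissue, the density in the first 5 kb downstream was 1.13, 1.27, 1.92 and 2.02 times that of the 5 kb upstream in CCE1 sheared, CCE2 sheared, CCE1 hydrolysed and CCE2 hydrolysed, and 1.02, 1.85 and 1.67 times in FH1 sheared, FH1 hydrolysed and FH2 hydrolysed. The downstream side was the denser one in 7 of 7 preparations, by 1.51 times on average (exact two-sided sign-flip test, p = 0.0156, the smallest that 7 preparations allow). This test counts sheared and hydrolysed preparations of the same RNA singly. Leaving out the 1% of members with the most flank tags lowers the ratio by the way they are chosen. It left 868 of the 902 expressed members in CCE and 1001 of the 1035 in FH. The ratio was then 0.973 times over the preparations, and 1.64 and 2.32 times in the Ribo-Zero libraries of CCE and FH. Counted by member in the 3 classes of exon level used below, 56.2% to 61.2% of the expressed CCE members had more tags downstream and 33.8% to 35.8% had fewer, and in FH 58.9% to 63.6% had more and 31.8% to 33.1% fewer. With no other gene within 30 kb, which leaves 1900 members, it was 1.20 times and no longer passed the test (p = 0.188), and neither did the 1.34 times found at Nijmegen alone (p = 0.109).

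Much of the upstream signal lay next to the gene start. For the 747 members expressed in both tissues, the first kb upstream had 0.843 ± 0.0691 RPKM (SD, n = 4) in CCE, above the first kb downstream with 0.686 ± 0.191, and the next kb upstream had 0.107 ± 0.0184. With the first kb left out on both sides, a choice made after seeing the data, the flank from 1 to 5 kb downstream was 3.25, 3.94, 3.80 and 3.88 times as dense as upstream in the CCE preparations and 3.09, 3.37 and 3.23 times in FH. The mean ratio was 3.49 times (exact sign-flip test, p = 0.0156, 7 of 7 preparations), and 2.23 times without the 1% of members with the most flank tags (exact sign-flip test, p = 0.0156). In the Ribo-Zero libraries, over the members expressed in both tissues, this ratio was 3.35 in CCE and 5.01 in FH.

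Density fell with distance from the gene end. Over the 747 members, the CCE pool went from 0.708 RPKM in the first step to 0.402, 0.271, 0.237 and 0.188 in the next 4 steps, and it was 0.0612 in the last step. In FH it went from 0.705 to 0.534, 0.375, 0.328 and 0.240, and it was 0.0588 in the last step. Over the expressed members of each tissue, the first step was 10.7, 11.1, 12.8 and 11.8 times as dense as the last one in the CCE preparations and 10.5, 13.8 and 13.7 times in FH (mean 12.0 times, exact sign-flip test, p = 0.0156, adjusted p = 0.0313 over 2 tests). The share of members with any tag fell from 76.7% in the first step to 20.5% in the last in CCE and from 81.3% to 22.1% in FH. As a background of the same kind of window, members with at most 0.1 exon RPKM in the CCE pool had 0.00328 RPKM in their first step and 0.00288 in their last.

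The last downstream step, 9 to 10 kb past the end, was set beside the last upstream step. Over the expressed members of each tissue, which are in part different genes, the ratio was 1.57, 2.20, 1.40 and 1.68 in CCE, each over 1, and 0.713, 0.784 and 0.851 in FH, each below 1. Over the 747 members expressed in both, CCE preparations had ratios of 1.64, 2.32, 1.48 and 1.69 and FH preparations had 1.14, 1.09 and 1.08, each over 1, so the side on which FH lies depends on the set of members. For the sets of each tissue the test over all 7 preparations gave p = 0.281 (exact sign-flip test), but it averages opposite signs, and within a tissue the smallest possible p was 0.125 in CCE and 0.25 in FH. Unique tags could start at 85.4% of positions in the first step and 76.0% in the last, and at 80.2% in the last upstream step, and per reachable position the first step was 11.0 times as dense as the last.

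**Figure D1:**
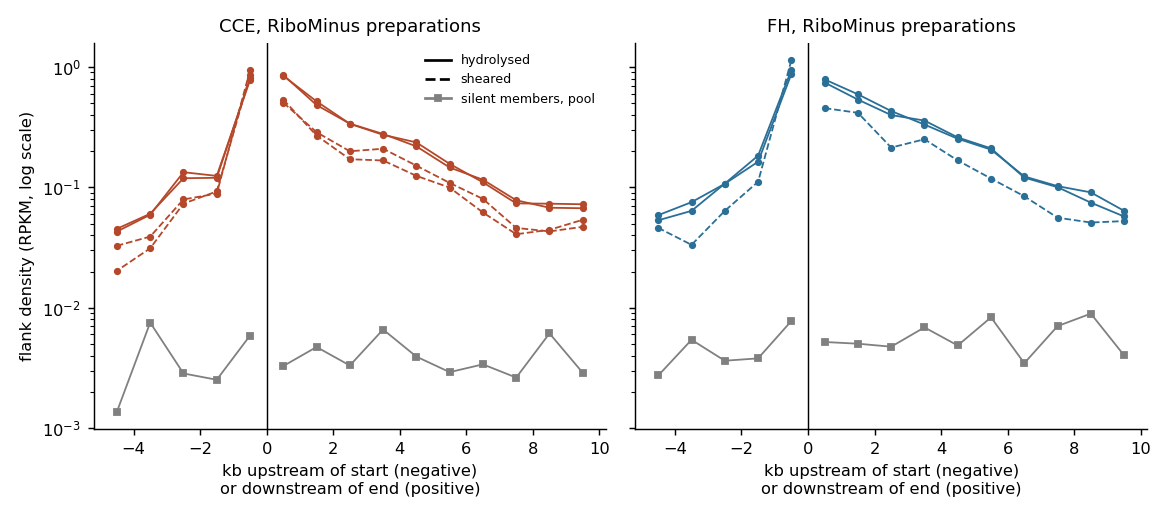
Tag density in RPKM (log axis) in each 1-kb step upstream and downstream of the genes, as 1 line per RiboMinus preparation, for the members expressed in both tissues, with members silent in a tissue in grey. Density is highest in the kilobases next to the gene and falls from the first to the last downstream step by 11.6 times (CCE pool) and 12.0 times (FH pool).

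The number of tags was unevenly spread over members. In the CCE RiboMinus pool 24021 tags lay in the flanks of the 902 expressed members, with a median of 8 per member and none in 6.98%, and 42 members held 50% of them. In FH 26290 tags lay in the flanks of 1035 members, the median was 9, and 67 members held 50%. The most tagged 10% of members held 64.8% of the flank tags in CCE and 58.9% in FH with RiboMinus, against 68.8% and 59.2% with Ribo-Zero.

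How many members had continuous signal far past the end depended on depth. With at least 3 tags in every step as the condition, 390 of the 902 CCE members had a first step, 146 reached 3 kb, 54 reached 5 kb and 3 reached 10 kb, Bmpr2 and Enah among them. Going upstream by the same condition, 9 members reached 5 kb. In FH 90 of 1035 members reached 5 kb downstream and 16 upstream, and those that reached 10 kb included Aak1, Bmpr2, Nkain2, Pou3f3, Ppm1a, Scaf8, Src and Zfml. In the deeper Ribo-Zero libraries 175 of 902 CCE members reached 5 kb and 43 reached 10 kb, and 473 of 1035 FH members reached 5 kb, which is 45.7%, and 171 reached 10 kb, while 63 and 154 members reached 5 kb upstream. Thinned to the same 9924914 tags per pool, 31 of the 747 members expressed in both tissues reached 5 kb in CCE and 72 in FH RiboMinus, and 64 and 134 in Ribo-Zero. These are single pools and no test was run on them.

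Flank density rose with exon density, but less than in proportion. In CCE the 450 members with 3 to 10 exon RPKM had 0.122 RPKM in the flank, the 313 members with 10 to 30 had 0.280 and the 139 members over 30 had 0.297. Relative to exons, the flank fell from 2.11% to 1.63% and 0.412% over these classes, where exon density is also the divisor. In FH the same classes had 0.175, 0.346 and 0.504 RPKM, which was 3.04%, 2.11% and 0.799% of exon density. Members with no exon tag at all had 0.00352 RPKM in CCE and 0.00503 in FH. Across the 747 members, flank and exon RPKM had a Spearman rho of 0.27 in CCE and 0.23 in FH, lower than the 0.77 between the flanks of both tissues or the 0.85 and 0.87 between RiboMinus and Ribo-Zero within CCE and FH. These correlations are across genes, which are not independent replicates and share their libraries' depth.

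**Figure D2:**
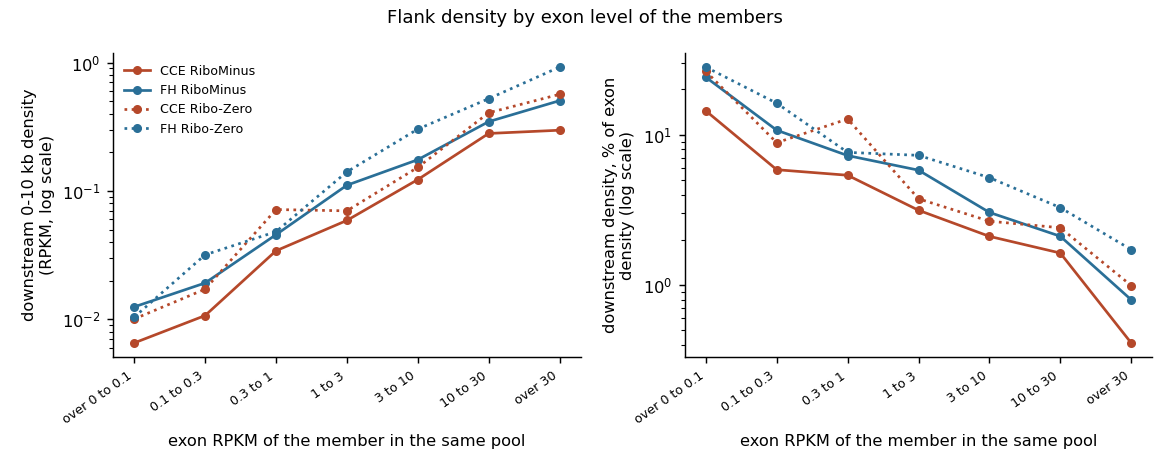
Downstream flank density in RPKM and flank density as a percentage of exon density (log axes), by class of exon RPKM, for the pools of each tissue and depletion. Flank density rises from class to class up to 30 exon RPKM in the RiboMinus pools, while its percentage of exons falls to 0.412% in CCE and 0.799% in FH above 30 RPKM.

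Members with long introns had more flank signal relative to exons. For introns of up to 10 kb in total the flank was at 0.691% of exon density in CCE and 1.32% in FH, and for introns over 100 kb at 2.82% and 3.43%. Exon density, the divisor, fell between these classes, from 22.8 to 10.3 RPKM in CCE and from 14.7 to 8.42 in FH. Flank density rose from 0.157 to 0.289 RPKM in CCE and from 0.195 to 0.289 in FH. Both Ribo-Zero libraries had the same order, with 1.51% and 3.38% in CCE and 2.66% and 4.98% in FH. Single-exon members had 0.381% in CCE and 1.72% in FH RiboMinus, and 7.29% with Ribo-Zero in FH, where Sox11 alone held 14427 of their 23341 flank tags. These values sum tags over members and were not tested.

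The tissue comparison asked whether flanks relative to exons or introns differed between CCE and FH. Over the 747 members expressed in both, the flank density of the 10 kb was 0.785%, 0.836%, 1.34% and 1.36% of exon density in CCE1 sheared, CCE2 sheared, CCE1 hydrolysed and CCE2 hydrolysed, and 1.33%, 2.20% and 2.05% in FH1 sheared, FH1 hydrolysed and FH2 hydrolysed. FH was 1.74 times CCE on average, and the difference did not pass the test (exact two-sided permutation test, p = 0.171, the smallest possible p for 4 against 3 being 0.0571). This test sets sheared FH beside hydrolysed CCE, and within each method every FH value was above every CCE value, by 1.58 times in hydrolysed and 1.64 times in sheared preparations, a split chosen after seeing the data that is too small for a test.

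Relative to introns the order was turned. The flank was at 66.4%, 55.7%, 59.3% and 57.5% of intron density in CCE and at 42.8%, 41.4% and 41.8% in FH, with no overlap and a ratio of 0.705 times. Introns themselves were at 1.18%, 1.50%, 2.26% and 2.36% of exon density in CCE and at 3.10%, 5.32% and 4.91% in FH, 2.47 times higher and again without overlap. The upstream 5 kb were at 1.18%, 1.06%, 1.16% and 1.15% of exons in CCE and at 1.98%, 1.89% and 1.94% in FH, 1.70 times higher. Each of these 3 differences had the smallest possible p of 0.0571 and an adjusted p of 0.0762 over 4 ratios (exact permutation test), so the design could not pass 0.05.

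The Ribo-Zero libraries, with 1 per tissue and no test, had higher flank values in both tissues. The flank was at 1.79% of exon density in CCE and 3.48% in FH, against 1.11% and 1.97% in the RiboMinus pools. Both Ribo-Zero libraries were hydrolysed, while the pools also hold sheared libraries. The hydrolysed RiboMinus preparations alone were closer, at 1.34% and 1.36% in CCE and 2.20% and 2.05% in FH. Relative to introns it was at 61.2% and 42.9%, against 59.2% and 41.8%. Of all tags in exons and flanks of these members, 2.57% lay in flanks in the CCE RiboMinus pool (95% exact binomial interval 2.54% to 2.61%) and 4.47% in FH (4.41% to 4.53%). With Ribo-Zero the shares were 4.08% (4.05% to 4.11%) and 7.65% (7.61% to 7.69%). These intervals cover counting error only, since tags at one position may be copies of 1 molecule.

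Fragmentation moved with the flank values. Over the 4 hydrolysed and 3 sheared preparations the flank relative to exons was 1.77 times higher after hydrolysis (exact permutation test, p = 0.0571, the smallest possible, adjusted p = 0.229 over 4 ratios), and in the 3 pairs that the labels give the same RNA it was 1.66 times higher, in 3 of 3 pairs, where the exact sign-flip p was 0.25 and 3 pairs allow none below it. The tags do not bear out the numbers of the hydrolysed libraries, whose preparations 1 and 2 differed in opposite directions at the 2 locations, so a hydrolysed preparation may mix both cDNAs. With these numbers crossed at Nijmegen the ratio was 1.75 times over preparations (exact permutation test, p = 0.114) and 1.55 times in 3 of 3 pairs. Counted over the 14 libraries, 8 hydrolysed and 6 sheared, it was 1.78 times higher (p = 0.00666 in an exact permutation test, adjusted p = 0.0266). That p is too small, since each cDNA enters it from both locations, and its call was lost without any 1 of the 4 sheared CCE libraries. Within CCE and within FH the ratio over libraries was 1.64 times each. Flanks relative to introns were at 0.911 times over the preparations, which did not pass the test (exact permutation test, adjusted p = 0.743).

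**Figure D3:**
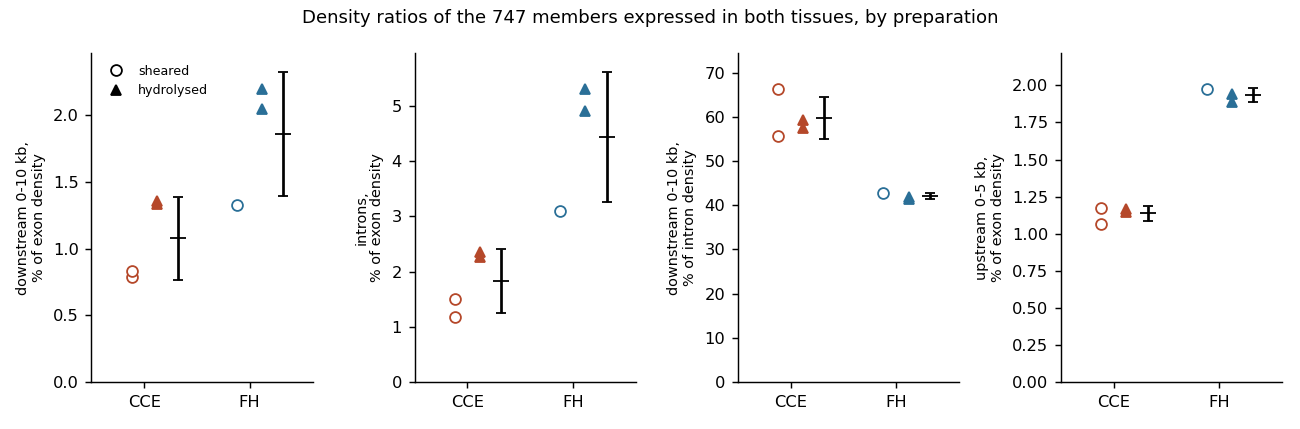
Downstream flank, introns and upstream flank as a percentage of exon density, and the downstream flank as a percentage of intron density, for each RiboMinus preparation, with the mean and SD of each tissue as bars. FH and CCE preparations overlap in the flank relative to exons only, where sheared preparations (open circles) are below the hydrolysed ones (triangles) of the same tissue.

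Members expressed in only 1 tissue give the same windows with the gene off. The 51 members with over 3 exon RPKM in FH and under 0.1 in CCE had 6, 4, 15 and 15 flank tags in the CCE preparations and 89, 309 and 334 in FH. Their summed flank density was 25.3 times higher in FH, which is given as a description, since exon tags of the same libraries chose the members. The Ribo-Zero libraries, which the choice did not use, held 176 and 6613 such tags in CCE and FH. In the opposite set of 4 members, namely Zfp42, Spink3, AU018091 and Gm9590, CCE preparations had 14, 4, 24 and 28 flank tags and FH preparations 0, 0 and 2. The Ribo-Zero libraries had 631 in CCE and 63 in FH. Most tags of this set came from Zfp42, whose flank held 676 tags over all 16 libraries. Of the 63 FH Ribo-Zero tags 61 lay in a single stretch of 500 bases in the Zfp42 flank, which ends 5459 bases past the gene end. Zfp42 encodes the pluripotency marker Rex1, and Spink3 a serine protease inhibitor.

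Members with the most abundant exons had flanks that were low relative to their exons, though not empty. Shfm1, a small subunit of the proteasome lid, had 390 exon RPKM in the CCE and 233 in the FH pool, with 1, 7, 10 and 10 flank tags in the CCE preparations and 3, 12 and 16 in FH. Its exon values split by fragmentation, with 126 and 85.2 RPKM in the sheared and 583 and 641 in the hydrolysed CCE preparations, and 35.5 in the sheared and 294 and 268 in the hydrolysed FH ones, so its place among the most abundant members rests on hydrolysed preparations. Ddit4, a stress-induced inhibitor of mTORC1, had 367 exon RPKM in CCE with 5, 4, 5 and 8 flank tags, and Itgb1, the integrin beta 1 subunit, had 289 with 9, 3, 24 and 15. Cotl1 and Fscn1, which bind and bundle actin, had 304 and 251 exon RPKM and 11 flank tags each in CCE. All 5 had more flank tags than the median of 8 over the expressed CCE members, and Shfm1 and Itgb1 had at least 3 tags in every step to 10 kb in both Ribo-Zero libraries, with 75 and 168 flank tags in CCE and 184 and 296 in FH.

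In FH the most abundant members other than Shfm1 were genes expressed in neurons or their precursors. Ndn, which encodes necdin, had 302 exon RPKM and 0, 3 and 5 flank tags, and Crabp1, a retinoic acid binding protein, had 235 with 0, 2 and 1. Stmn2, a microtubule regulator of neurons, had 244 exon RPKM and 15, 21 and 31 flank tags, and Tubb2b, a beta tubulin whose tags count only where they differ from near-identical tubulins, had 216 with 6, 22 and 20. Among the members that qualified for a ratio, the lowest flank was at 0.0459% of exon density in CCE and 0.115% in FH.

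At the other end of the range stood members with flanks at over 25% of the density of their exons. Among members with over 3 exon RPKM in both depletions and at least 20 flank tags in the RiboMinus pool, 207 in CCE and 267 in FH, the median ratio was 2.41% and 4.14%, and 26 and 56 members exceeded 10%. Genes among the 6 highest of each tissue are described next, and their ratios chose them. The 6th and 7th values were 25.6% and 24.95% in CCE and 32.1% and 31.9% in FH, so the cut between them is narrow.

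Aak1 (chr6:86799511-86941858, plus strand), a kinase of the endocytic adaptor AP2, had flank values of 8.10, 7.69, 8.44 and 9.80 RPKM in the CCE preparations and 3.97, 4.69 and 4.56 in FH. CCE was higher without overlap, with a log2 difference of FH to CCE of -0.93 ± 0.22 (SE, limma, adjusted p = 0.00527). The Ribo-Zero libraries were closer, with 4.03 RPKM in CCE and 3.89 in FH over the first 9 kb, against 8.26 and 4.51 in the RiboMinus pools. Its first 4 steps held 5, 2, 3 and 11 tags in the CCE pool and the fifth 330, with 93 to 202 in each later step. In FH they held 26, 5, 13 and 14 tags with RiboMinus, before 129 in the fifth, and 101, 96, 77 and 57 with Ribo-Zero, before 327. Most of its flank tags thus lay over 4 kb from the annotated end in which AATAAA is printed above, while in FH tags were also present next to it.

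Sesn3 (chr9:14080745-14130582, plus strand), a stress-induced regulator of mTORC1, had 4.72, 5.47, 7.16 and 6.98 flank RPKM in CCE and 4.55, 6.27 and 6.25 in FH, which overlap. In the FH Ribo-Zero library the 7 steps next to the gene held 241 to 456 tags each and the eighth step 21. Lnpep (chr17:17664687-17761453, minus strand), a membrane aminopeptidase, had 2.78, 3.73, 6.34 and 7.16 RPKM in CCE and 2.59, 3.69 and 3.22 in FH. The tissues overlap here too, and sheared CCE preparations were below hydrolysed ones. In the CCE Ribo-Zero library its first 6 steps held 121 to 293 tags, the seventh 49 and the eighth 3.

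Bmpr2 (chr1:59821481-59927703, plus strand), the type II receptor for bone morphogenetic proteins, had 2.78, 2.03, 4.73 and 4.40 flank RPKM in CCE and 3.65, 7.94 and 6.48 in FH. The levels overlap, but relative to exons the flank was at 23.7%, 11.6%, 18.8% and 17.7% in CCE and 35.6%, 40.9% and 40.7% in FH, without overlap. The log2 difference of this ratio was 1.14 ± 0.29 (limma, adjusted p = 0.0134). Over the first 9 kb the flank level of Bmpr2 was 6.59 RPKM in CCE and 6.91 in FH with Ribo-Zero, against 4.01 and 7.08 in the RiboMinus pools. In the FH Ribo-Zero library the first 7 steps held 294 to 573 tags and the last 3 held 62 to 75. Bmpr2 also had 394 tags in the first kb upstream in the CCE pool.

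Ptbp2 (chr3:119421660-119486306, minus strand), a splicing repressor of neurons and their precursors, qualified in CCE through 1 distant step. Of its 137 CCE RiboMinus flank tags 98 lay in the last step, and in the CCE Ribo-Zero library 366 of its flank tags did. Phactr2 (chr10:12933201-13194202, minus strand), a regulator of protein phosphatase 1 and actin, had 22 to 28 tags in each of the first 5 steps in the CCE pool, 5 in the sixth and none after that. In FH it had 20 to 30 tags in the same 5 steps and 3 in the sixth.

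Sox11 and Gprin2 were named in FH. Sox11 (chr12:28025562-28027574, minus strand), a transcription factor of neural and mesenchymal progenitors with a single exon, had 1.44, 1.81, 2.38 and 1.93 flank RPKM in CCE and 10.5, 8.40 and 8.31 in FH, and was higher in FH by 2.22 ± 0.28 on the log2 scale (limma, adjusted p = 3.14e-05). In the FH Ribo-Zero library the first 6 steps held 2018 to 2728 tags each and the seventh 124, so its flank had a level stretch longer than the annotated gene. Gprin2 (chr14:35007627-35014819, minus strand), a regulator of neurite outgrowth, had 0.167, 0.259, 0.301 and 0.327 RPKM in CCE and 2.22, 4.23 and 4.40 in FH (log2 difference 3.32 ± 0.39, limma, adjusted p = 2.15e-05), with 96 to 266 tags in the first 9 steps of the FH Ribo-Zero library and 8 in the last.

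**Figure D4:**
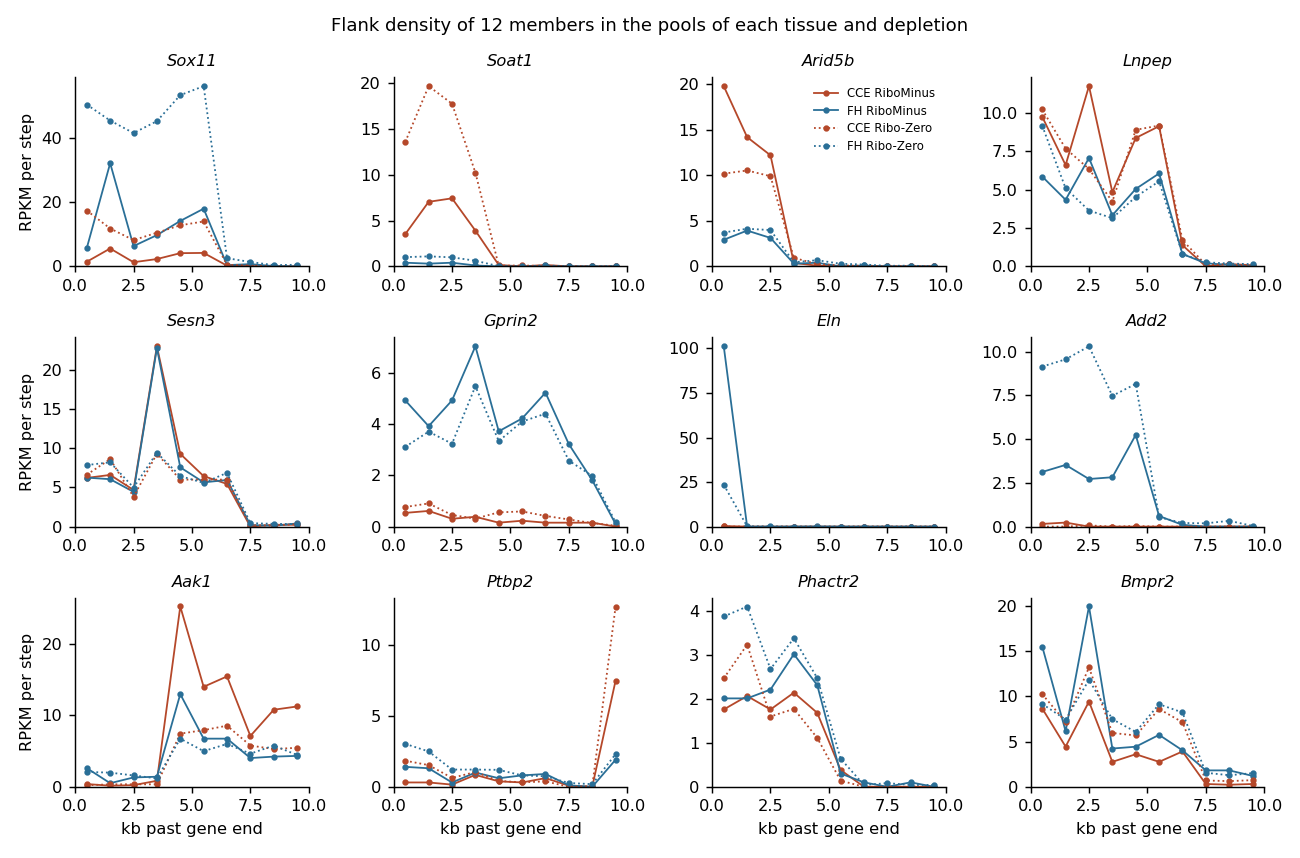
Flank density in RPKM of 12 members in each 1-kb step past the gene end, with CCE and FH in their colours, RiboMinus pools as solid lines and Ribo-Zero libraries as dotted lines. Signal stays well above 0 and then drops in Sox11 after 6 kb, Sesn3 after 7 kb and Soat1 after 4 kb, and it rises in the fifth step in all 4 lines of Aak1.

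To place these drops more exactly, all 16 libraries were summed. A position was sought where at least 40 tags in the 500 bases before it fell at least 10-fold in the 500 bases after it. The edge was then set close to the last tags of the 500 bases before that position, so counts around an edge can differ from this rule. Of 1241 members with at least 40 flank tags, 120 had an edge, 27 of them within 1 kb of the gene end, 39 at 1 to 3 kb, 31 at 3 to 6 kb and 23 beyond 6 kb. The median edge lay 2553.5 bases past the end. The rule asks for no run of tags from the gene end, so an edge can also bound a distant cluster. In Trim27, with 6240 flank tags, 3972 CCE and 2073 FH Ribo-Zero tags lay in the 500 bases before its edge at 5565 bases. Edges of this kind were not set apart. Where both tissues gave an edge of their own, in 48 members, 32 pairs lay within 100 bases of each other and 2 were over 1000 bases apart. RiboMinus and Ribo-Zero libraries gave an edge each in 39 members, within 100 bases in 26. Both searches were made only in the 120 members with an edge in the summed libraries, and with tags that set that edge. The closeness is therefore in part fixed by this choice. With repeated positions counted singly, 88 edges were found, all in members of the first set.

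In Sox11 the edge was 6218 bases past the end, where the FH Ribo-Zero library went from 705 tags to 29. Soat1 had its edge at 3529 bases, with 280 and 3 tags in the CCE Ribo-Zero library, and Arid5b at 3011 bases, with 149 and 6. Sesn3 had its edge at 6.935 kb in CCE and 6.926 kb in FH measured alone, and Lnpep at 6.234 and 6.248 kb. Add2 and Eln had edges at 4827 and 1070 bases, found in FH. For Eln the second step held 0 tags in the FH RiboMinus pool and 7 in the FH Ribo-Zero library. The hexamers printed above for Soat1, Arid5b, Lnpep, Sesn3 and Eln thus lie 9 to 93 bases past the edge.

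AATAAA and ATTAAA were searched on the gene's strand only, and a match is a description of the sequence. A window of 200 bases around each edge, from 50 before to 150 after it, held AATAAA in 41.7% of 120 edges and either hexamer in 49.2%, against 14.3% and 22.7% of all 200-base windows of all flanks. For the 66 edges up to 3 kb past the end the share with AATAAA was 51.5%, and for the 54 beyond 3 kb it was 29.6%. These shares also include edges that bound a distant cluster. Neither hexamer was found at the edges of Sox11 and Add2.

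The last 50 bases of the annotated gene held AATAAA in 47.8% of all 3905 members and either hexamer in 58.7%, against 3.68% and 6.12% of all 50-base windows of the flanks. For the 1190 members expressed in either tissue the shares were 63.9% and 78.2%. For the 75 expressed members whose flank was at least at 10% of exon density in either tissue they were 25.3% and 33.3%, below all expressed members, and for the 1454 members with no exon tag 29.3% and 35.4%. Among the named genes neither hexamer was found at the annotated end of Cotl1, Tubb2b, Sox11, Soat1, Arid5b, Lnpep, Sesn3, Gprin2 or Eln.

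Flank levels were then compared between the tissues for each member with at least 10 flank tags. limma on log2(RPKM + 0.1) of the 7 preparations called 251 of 991 members higher in FH, which is 25.3% called, and 33 lower, which is 3.33% (adjusted p under 0.05, 28.7% in either direction). Every FH preparation was above every CCE preparation in 28.8% of members and the opposite held in 4.84%. Of all 991 members tested, 734 were higher and 257 lower in the FH than in the CCE Ribo-Zero library. Of the 251 members called higher in FH, 246 were also higher there, and 31 of the 33 lower ones were also lower. Exon levels moved the same way in most, since of 167 higher members with an exon test 109 were higher and 7 lower in FH, and of 24 lower members 22 were lower and 0 higher. As background, 19.9% of 10306 protein-coding genes had higher exon levels in FH and 34.8% lower ones. The counts moved with the preparations used, with 135 higher members without FH1 hydrolysed, 128 higher and 21 lower without FH2 hydrolysed, 72 lower with fragmentation as a covariate, 126 higher at Vienna-IMP alone, and 91 higher and 16 lower at Nijmegen alone.

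The 5 largest rises in FH were in Eln, A130050O07Rik, Add2, Pou3f3 and Pou3f2. Eln (chr5:135179651-135223111, minus strand), which encodes elastin of the extracellular matrix, had 2, 0, 1 and 1 flank tags in the CCE preparations and 115, 430 and 460 in FH. FH was higher by 6.16 ± 0.40 on the log2 scale (limma, adjusted p = 3.44e-08), and 1004 of its 1005 FH tags lay in the first step. Add2 (chr6:86028078-86069549, plus strand), beta adducin of the membrane skeleton, had 0, 0, 3 and 2 tags in CCE and 25, 83 and 72 in FH (log2 difference 3.80 ± 0.39, limma, adjusted p = 6.08e-06). In the FH Ribo-Zero library its first 5 steps held 362 to 499 tags and the sixth 26.

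Pou3f3 and Pou3f2 are single-exon genes of the POU transcription factors Brn1 and Brn2, which act in neural precursors. Pou3f3 (chr1:42753991-42757052, plus strand) had 0, 0, 0 and 3 flank tags in CCE and 15, 74 and 68 in FH (log2 difference 3.64 ± 0.41, limma, adjusted p = 1.52e-05). Pou3f2 had no flank tag in any CCE RiboMinus preparation and 16, 39 and 52 in FH, at least 46.9-fold higher against a floor of 3 tags over the pooled CCE preparations. Both rose with their exons, which were at 0.450 and 0.317 RPKM in the CCE and 29.0 and 20.4 in the FH pool. Pou3f3 also had 137 FH tags in the first kb upstream, more than in any downstream step, whose counts went from 5 to 26. A130050O07Rik (chr1:139824747-139826850, plus strand), a single-exon gene, had 1, 2, 10 and 6 flank tags in CCE and 59, 291 and 267 in FH, and its flank was denser than its exon in FH, at 310%, 227% and 244%.

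The 5 largest falls were in Soat1, Adrb3, Eif4ebp1, Gm4694 and Arid5b. Soat1 (chr1:158358239-158404459, minus strand), which esterifies cholesterol, had 1.07, 1.66, 2.66 and 3.18 flank RPKM in CCE and 0.0529, 0.108 and 0.162 in FH, a log2 difference of -3.36 ± 0.43 (limma, adjusted p = 4.04e-05). Its exons were also lower in FH, by -2.12 (adjusted p = 0.000606), and relative to exons the flank fell by 1.01 ± 0.35 (limma, adjusted p = 0.0466). Its 4 filled steps held 46 to 97 tags in the CCE pool and the fifth 2. Arid5b (chr10:67558341-67741474, minus strand), a DNA-binding cofactor of a histone demethylase, had 2.04, 3.40, 5.59 and 6.89 RPKM in CCE and 0.371, 1.32 and 1.18 in FH (log2 difference -2.13 ± 0.46, limma, adjusted p = 0.00259).

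Adrb3, the beta 3 adrenergic receptor, had 16, 15, 35 and 34 flank tags in CCE and 0, 1 and 0 in FH, and Eif4ebp1, a repressor of translation initiation, had 22, 10, 29 and 23 in CCE and 0, 3 and 1 in FH. Neither gene's tissues overlapped. For Eif4ebp1 the Ribo-Zero libraries were closer, with 0.216 and 0.0888 RPKM. Gm4694 had no exon tag in any library but 8, 6, 21 and 26 flank tags in CCE and none in FH RiboMinus, at least 15.5-fold higher in CCE against the floor of 3 tags over the pooled FH preparations, so for this member the flank does not follow counted exons.

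**Figure D5:**
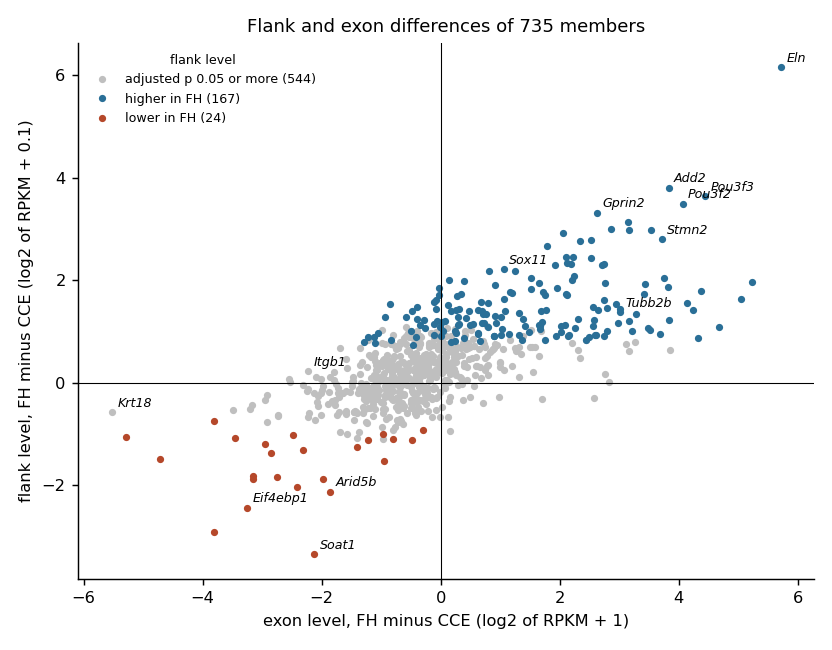
Difference between FH and CCE on the log2 scale in the flank (vertical) and in the exons (horizontal) for 735 members tested on both, with members called in the flank coloured. Of the called members 167 are higher and 24 lower in FH, and 482 of the 735 have the same sign in flank and exons.

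Lists of genes were taken by name and described by counts. Of 25 members listed as transcription factors of the Sox, Pou, Fox, Irx, Nr2f and like families, 14 were tested, 9 rose in FH and 0 fell, where 25.3% of all tested members rose and 3.33% fell, with a median log2 difference of 1.32 against 0.38 over all 991 members. Besides Sox11, Pou3f3 and Pou3f2 they included Six2, Irx1, Irx2, Foxd1 and Sox14. In the FH pool the 5 kb upstream of Six2 and Irx2 held 208 and 46 tags and the 10 kb downstream 20 and 13. Irx1, Foxd1 and Sox14 had 0, 5 and 0 tags upstream and 32, 40 and 30 downstream. Pou3f3, Pou3f2, Six2, Irx1, Irx2 and Sox14 had 3, 0, 3, 0, 1 and 0 flank tags in the CCE pool. They reached the filter of 10 flank tags through FH, so the count of rises is not independent of the filter. Nr2f2, which encodes COUP-TFII, had 126 and 55 tags and did not pass the test (log2 -0.71 ± 0.38, limma, adjusted p = 0.175), and Sox17, a factor of endoderm, had 7 and 6.

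Of 19 members for adhesion and axon guidance 8 were tested, of which 6 rose in FH and 0 fell, beside the same 25.3% and 3.33% of all tested members, with a median of 1.31, or 2.36 with the 4 members without a CCE tag set at their bound. Slitrk1, Slitrk3, Slitrk5 and Slitrk6 are synaptic adhesion proteins with leucine-rich repeats. They had 0, 0, 1 and 0 flank tags in the CCE pool and 81, 20, 48 and 14 in FH. Pcdh17 had 0 flank tags in the CCE pool and 12 in FH. Pcdh17 and the Slitrk members reached the filter on flank tags through FH. The count of rises and the medians of this list are therefore not independent of the filter. Robo1, a receptor for Slit proteins, went from 7 to 38 tags while its exon density was 20.2 RPKM in CCE and 22.2 in FH (flank log2 difference 1.40 ± 0.39, limma, adjusted p = 0.0129). Its flank to exon ratio did not pass the test (log2 difference 1.23 ± 0.47, limma, adjusted p = 0.0674). Of 13 matrix members 2 were tested and 1 rose, Col3a1, a fibrillar collagen, from 3 to 44 tags, which is too few members to set beside the 25.3% of all. The 3 lists were picked by prefix of the gene symbol, so the matrix list also holds Colec10 and Lamp3 and the first list Pou2af1, a coactivator without a POU domain.

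The flank was then taken relative to the exons of the same gene, for the 535 members expressed in both tissues with at least 10 flank tags. The ratio was higher in FH in 140 members, 26.2%, and lower in 12, 2.24% (limma, adjusted p under 0.05, 28.4% in either direction), with every FH preparation above every CCE one in 35% and below in 2.8%. The median log2 difference over all 535 was 0.74. Of the 140 higher members 103 had lower exon levels in FH and 0 had higher ones, while the flank level itself was higher in 26 and lower in 3. Over all 535, exon levels were lower in 190 and higher in 58, and flank levels were higher in 78 and lower in 13. Exon level is also the divisor of the ratio, so the exon counts of the called members are in part fixed by it. In the Ribo-Zero libraries the ratio was higher in FH in 137 of the 140, and in 496 of all 535. The number of higher members was 92 without CCE1 sheared, 67 without either hydrolysed FH preparation, 68 with 0.03 RPKM added in place of 0.1, and 222 with fragmentation as a covariate. At Vienna-IMP alone 63 were higher and 4 lower, and at Nijmegen alone 10 and 0. The number of lower members was 6 without CCE1 hydrolysed and 2 without either hydrolysed FH preparation.

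The 5 largest rises of the ratio were in members with few flank tags. Krt18, a keratin of simple epithelia, had 221, 221, 215 and 204 exon RPKM in CCE and 3.40, 4.04 and 3.64 in FH, but only 1, 1, 4 and 3 flank tags in CCE and 0, 1 and 0 in FH. Slc38a4, an amino acid transporter, Hspb8, a small heat shock protein, Scd1, a fatty acid desaturase, and Dact2, an antagonist of signalling receptors, followed with at most 7 flank tags in any preparation. In all 5 the added 0.1 RPKM is of the size of the flank values, so their ratios rest on the exon values. In the first 9 kb Krt18, Slc38a4, Hspb8, Scd1 and Dact2 had 42, 8, 10, 27 and 26 tags in the CCE Ribo-Zero library. In the FH Ribo-Zero library they had 0, 5, 7, 38 and 4. Krt18, with no FH tag there, thus did not have a higher ratio in FH with Ribo-Zero. Itgb1 had more flank tags, with flanks at 0.112%, 0.0619%, 0.187% and 0.125% of exons in CCE and 0.496%, 0.813% and 0.728% in FH (log2 ratio difference 2.48 ± 0.41, limma, adjusted p = 0.0016), while its flank level had a log2 difference of 0.23 ± 0.48 (adjusted p = 0.764).

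Of the 12 members with lower ratios in FH, 11 had higher exon levels there, against 58 of all 535 tested, and exon level is the divisor. Ptbp2, Tubb2b, Gng2, Chst1 and Cxcr4 were the 5 largest. Ptbp2 had flank levels of 1.17, 0.998, 0.827 and 1.25 RPKM in CCE and 0.847, 0.942 and 0.740 in FH, while its exons were higher in FH by 0.98 (limma, adjusted p = 0.0395). Its ratio fell by 1.47 ± 0.41 (limma, adjusted p = 0.0182), a call lost at Nijmegen alone (log2 -1.48, limma, adjusted p = 0.159). The last step held 98 of its 137 CCE and 19 of its 83 FH tags, and the other 9 kb held 39 tags at 0.332 RPKM in CCE and 64 at 0.716 RPKM in FH, so the direction of the flank comparison rests on the last step. For the 12 members the ratio of pooled tags without the added 0.1 RPKM was higher in FH in 4 and lower in the others, and the ratio of the Ribo-Zero libraries was higher in FH in 7. Of the named ones Gng2 and Chst1 turned, from 0.174% and 0.235% of exon density in the CCE pool to 0.465% and 0.594% in FH, and they were also higher in FH with Ribo-Zero, so their fall depends on the added value. Cxcr4 had 4 and 6 flank tags in the pools and was higher in FH with Ribo-Zero, with 0 and 25 tags. With repeated positions counted singly the calls of all 5 named members were lost (limma, adjusted p = 0.0529 to 0.786). Gng2, Chst1, Cxcr4 and Ptbp2 then had log2 differences of -1.26, -1.21, -1.13 and -1.11, and Tubb2b went from -1.68 to -0.18. Tubb2b also lost its call at each location alone, with -1.62 at Nijmegen (limma, adjusted p = 0.187) and -1.29 at Vienna-IMP (limma, adjusted p = 0.161).

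Factors that cut and tail RNA were examined as exon levels. Of 27 listed genes 26 were tested, of which 3 were higher and 6 lower in FH, where 19.9% of all genes were higher and 34.8% lower, or 54.7% in either direction. The 6 became 10 with fragmentation as a covariate and 12 with number and fragmentation as a replicate block. The lower ones were Cpsf3, the endonuclease that cuts the RNA, by -1.36 ± 0.27 (limma, adjusted p = 0.00264), Cstf1 and Cstf2 of the cleavage stimulation factor by -1.17 and -0.76, Clp1 by -1.13, the phosphatase Ssu72 by -0.85 and the RNA-binding protein Elavl1 by -1.30. Elavl2, Elavl3 and Elavl4, the Hu proteins of neurons that bind AU-rich RNA, were higher by 2.93, 4.42 and 3.12. Cpsf1, Pcf11, the termination factor, and Xrn2, the exonuclease that degrades RNA after the cut, had differences of -0.08, -0.03 and -0.25 that did not pass the test (adjusted p = 0.808, 0.913 and 0.52). Whether these levels bear on the flanks was not tested.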

How the data were processed

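Ribosomal RNA depleted RNA of differentiated CCE cells and fetal heads was sequenced, and the 14 RiboMinus and 2 Ribo-Zero libraries were used here. The authors aligned the tags with Bowtie to mm9, as the submitters' processing notes name them, and the deposited files list each uniquely aligned tag as 1 line with its start and end. The deposited score column is constant within a library and was not used, and the files carry no strand. Extra lanes and combined samples of the series were not used here.

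The midpoint of each tag placed it in merged exons, introns or flank steps of GENCODE M1, and 10 steps that lay past a chromosome end were left empty. RPKM values were computed from these counts and all unique tags of a library or pool, with the tags of both locations summed per cDNA preparation. Depth per RiboMinus library was 920424 to 2473448 tags, so single members rest on few tags and were tested only with at least 10 flank tags. Density ratios were compared with exact two-sided sign-flip and permutation tests, the Benjamini-Hochberg method was used for adjustment, and no test was run on the Ribo-Zero libraries. Single members were fitted with limma (version 3.58.1, R 4.3.3, trended variance) on log2(RPKM + 0.1), and exon levels on log2(RPKM + 1) for genes whose mean RPKM exceeded 3 in either tissue. A fold change on these scales understates the change of low values. On simulated data for the flank level test with 991 members and 200 changed 4-fold, 117 were recovered and 3 unchanged ones called, and of the 89 changed ones with at least 30 tags 69 were recovered. Scripts ran in Python 3.11.15 with scipy 1.17.1, numba 0.67.0, numpy 2.4.6, matplotlib 3.10.9 and pandas 2.3.3.

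Members named were the 6 with the highest flank to exon ratio and the 5 with the highest exon RPKM in each tissue, and the 5 largest differences in each direction of the flank level and of the flank to exon ratio past the threshold and without overlap between tissues. Some members that met these rules are not reported here. Gene lists were taken by symbol prefix. The members, the lists and the rules were chosen with earlier results of these data known. The search for edges, the comparison without the nearest kb, the fragmentation tests over preparations, the split by fragmentation and the genes named with the counts were added after the data were seen. Alternatives were another pseudocount, filter or scaling, repeated positions counted once, reachable positions as length, other distances and thresholds, single locations, a fragmentation covariate, a replicate block, and each preparation or library left out.

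The labels number CCE and FH preparations alike, and the numbers do not come from shared RNA across tissues. Between the locations, the log2 ratio of preparation 1 to 2 had r = 0.641 over 6447 genes in the sheared CCE libraries, -0.644 over 7765 genes in the hydrolysed CCE libraries and -0.496 over 7826 genes in the hydrolysed FH libraries. With opposite signs at the locations, the numbers of the hydrolysed libraries may be crossed at one of them, and a hydrolysed preparation may then sum tags of both cDNAs. The labels were kept as given, and a version with the hydrolysed numbers crossed at Nijmegen was among the alternatives. Of the factors listed for cleavage and polyadenylation, Nudt21 was not among the genes tested.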

Additional observations from a re-analysis of the deposited data

Results flagged for a closer look

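Of 37 groups of 4 to 10 samples, 2 held a sample far from the others by Dixon's test, and chance alone gives about 1 in 20. In the CCE2 sheared library from Nijmegen the last downstream step was 2.76 times as dense as the last upstream step, above the other 7 CCE libraries. The flank of Eif4ebp1 in CCE2 sheared, with 0.370 RPKM, was below the other 3 CCE preparations.

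The last downstream step relative to the last upstream one had a mean of 1.71 in CCE, with every preparation over 1, and of 0.783 in FH, with every preparation below 1. These means are over the expressed members of each tissue. Over the 747 members expressed in both, the means were 1.78 in CCE and 1.10 in FH, with every preparation over 1. The difference between the tissues was not tested.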

How the results depend on the processing

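Of 367 alternative values for 19 results, 301 kept direction and side of the threshold or stayed within 1.5 times, though the tissue ratios could not reach 0.05 in any of them. On the log2 scale, downstream against upstream density was -0.039 without the 1% of members with the most flank tags, 0.26 with 30 kb isolation and 0.42 at Nijmegen alone, where it no longer passed. The last downstream to last upstream step was -0.13, -0.14 and, for exon RPKM over 10, -0.15. The fall from first to last step was 3.55 to 3.62 with 1 preparation left out, and lost its call because 6 preparations cannot give an adjusted p under 0.0625. For hydrolysed against sheared libraries, flanks to exons were 0.71 within CCE, 0.72 within FH, 0.74 in pairs of libraries, 0.83 with each cDNA preparation as 1 sample, 0.73 in pairs of preparations, 0.81 and 0.63 for these 2 with the hydrolysed numbers crossed at Nijmegen, and 0.73 to 0.98 with 1 library left out, and the call was lost without any 1 of the 4 sheared CCE libraries. Introns to exons passed with positions counted once (1.07) and exon RPKM over 10 (0.93), and were 0.81 to 1.17 with 1 library left out. Flanks to introns turned to 0.0093 without the top 1% and 0.14 as a mean over members, and upstream to exons to -0.062 as such a mean and -0.029 within FH. Higher and lower flank levels numbered 118 higher at 30 tags, 104 and 10 without a filter, 126 higher at Vienna-IMP, 91 and 16 at Nijmegen, 72 lower with the fragmentation covariate, and 128 to 292 and 21 to 36 with 1 preparation left out. Higher and lower ratios numbered 68 and 3 at pseudocount 0.03, 31 lower at 0.5, 64 and 5 at 30 tags, 26 lower without a filter, 3 lower with positions counted once, 6 lower for the flank of 1 to 10 kb, 222 and 21 with the covariate, 63 and 4 at Vienna-IMP, 10 and 0 at Nijmegen, and 67 to 157 and 2 to 10 with 1 preparation left out. Lower cleavage factors numbered 10 with the covariate and 6 to 9 with 1 left out. The preparations share only a number across tissues. With number and fragmentation as a replicate block, 291 flank levels were higher and 73 lower, 190 ratios higher and 16 lower, and 12 cleavage factors lower, and no other call changed. The cause of these changes was not tested. Flanks of single members are limited by depth, with a median of 8 tags in CCE and 9 in FH.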
